A study of Mus musculus with 30 samples.

Results

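The genes that encode the subunits of voltage-gated sodium channels and of voltage-gated calcium channels were examined in the hippocampus of mice fed methylmercury (MeHg), with and without selenium. The members were all genes whose symbol begins with Scn, a number and a or b (sodium channel alpha and beta subunits) or with Cacna, Cacnb or Cacng (calcium channel subunits), and whose normalized counts summed to at least 300 over the 30 libraries. This gave 33 genes of the 21412 in the table, which were 11 sodium channel alpha and beta genes, 8 calcium channel alpha1 genes, 4 alpha2delta genes, 4 beta genes and 6 gamma genes. The table held 40 gene models with such symbols, and 7 of them lay under the sum of 300, namely Cacna1f, Cacna1s, Cacng6, Scn4a, Scn10a, Scn11a and a second, minor gene model of Scn8a. The highest model left out was Cacng6 with a sum of 269. Scn2a carries the symbol Scn2a1 in the annotation of the build used.

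The mice were male BALB/c mice housed individually, and RNA of whole hippocampal tissue was sequenced from 6 groups with 5 mice each. Ctr mice received feed without added MeHg, LD mice received feed with 0.28 mg MeHg per kg and HD mice received feed with 5 mg MeHg per kg, for 11 weeks. Se_Ctr, Se_LD and Se_HD mice were given selenium and no, low or high MeHg, in what the series describes as a full factorial design. The MeHg concentration, the length of exposure and the selenium dose of these 3 groups are not given in the sources used here, and tests over both diets (with and without selenium) take their low and high dose to be those of LD and HD. Every library stands for a separate mouse. Libraries are named below by their group and by the number that the labels give them. The hippocampal identity of the tissue was reflected in the granule cell gene Prox1, with group means of 781 to 900 normalized counts. Slc17a7, a vesicular glutamate transporter of excitatory neurons, had group means of 6342 to 7091. The choroid plexus gene Ttr was abundant as well, with group means of 10800 to 22270. The depth of the libraries was 5768208 to 11510521 counted reads, with group medians from 7119788 in Ctr to 10159514 in HD.

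A voltage-gated sodium channel consists of a pore-forming alpha subunit that opens on depolarization and starts the action potential, joined by beta subunits that adjust its gating and anchor it in the membrane. A high-voltage-activated calcium channel has a pore-forming alpha1 subunit, a cytoplasmic beta subunit that brings it to the membrane, and an alpha2delta subunit that sits outside the membrane and promotes its surface expression, and at the synapse calcium entering through it triggers transmitter release. Most gamma subunit genes of the brain encode transmembrane AMPA receptor regulatory proteins (TARPs), which carry AMPA-type glutamate receptors to the synapse. Spontaneous mouse mutants with ataxia and absence seizures are known for an alpha1 gene (tottering, Cacna1a), a beta gene (lethargic, Cacnb4), a gamma gene (stargazer, Cacng2) and an alpha2delta gene (ducky, Cacna2d2).

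Start-site sequences of RefSeq on GRCm38.p6, from 250 bases before to 50 bases after the annotated start, were matched by symbol for 24 of the 33 genes, which held 35 starts. For 4 genes called at the high dose they are printed below 5′ to 3′ on the strand of the gene, in lower case, and the capitals mark each match to the GC box letters GGGCGG on either strand. Cacnb4 is shown at chr2:52676094-52676393 on the minus strand, at the most upstream of its 3 starts. Cacng2 is shown at chr15:78119231-78119530 on the minus strand, Cacna2d3 at chr14:29721815-29722114 on the minus strand and Scn4b at chr9:45138374-45138673 on the plus strand.
Cacnb4: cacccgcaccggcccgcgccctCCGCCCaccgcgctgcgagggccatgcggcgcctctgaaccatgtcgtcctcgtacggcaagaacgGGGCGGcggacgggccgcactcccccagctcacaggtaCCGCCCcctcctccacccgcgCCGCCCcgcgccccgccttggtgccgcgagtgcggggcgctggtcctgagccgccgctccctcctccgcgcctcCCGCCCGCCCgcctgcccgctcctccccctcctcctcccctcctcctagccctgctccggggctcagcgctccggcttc
Cacng2: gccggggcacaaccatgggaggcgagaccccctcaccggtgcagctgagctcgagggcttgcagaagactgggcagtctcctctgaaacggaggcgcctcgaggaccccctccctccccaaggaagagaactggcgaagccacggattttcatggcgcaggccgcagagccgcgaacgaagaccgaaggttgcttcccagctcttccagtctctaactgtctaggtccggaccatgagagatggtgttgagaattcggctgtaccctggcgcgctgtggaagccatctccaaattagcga
Cacna2d3: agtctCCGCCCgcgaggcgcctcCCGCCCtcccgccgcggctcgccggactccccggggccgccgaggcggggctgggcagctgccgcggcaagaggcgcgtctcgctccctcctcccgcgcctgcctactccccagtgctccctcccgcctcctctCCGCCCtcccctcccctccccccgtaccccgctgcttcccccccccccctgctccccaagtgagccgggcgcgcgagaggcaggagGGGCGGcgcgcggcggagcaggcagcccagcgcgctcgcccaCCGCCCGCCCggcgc
Scn4b: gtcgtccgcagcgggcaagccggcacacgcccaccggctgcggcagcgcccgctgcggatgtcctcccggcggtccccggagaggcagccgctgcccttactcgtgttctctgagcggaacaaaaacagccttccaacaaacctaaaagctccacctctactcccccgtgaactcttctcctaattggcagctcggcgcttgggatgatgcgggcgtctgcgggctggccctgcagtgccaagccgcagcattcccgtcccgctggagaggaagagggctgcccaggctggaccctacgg

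The windows of Cacnb4 and Cacna2d3 were very rich in G and C, at 78.3% and 81.3% of bases, with 40 and 41 CpG dinucleotides and 6 GC box matches each. The windows of Cacng2 and Scn4b held 61.0% and 66.3% of G and C, 20 and 26 CpG dinucleotides and no GC box match. Over the 35 member windows the median was 59.7% of G and C and 12 CpG dinucleotides, beside 52.7% and 7 over the 32851 windows of all genes in the RefSeq table. Each motif was searched on both strands. GC box letters were present in 14 of the 35 member windows (40%), and in 35.7% of all windows. The TATA box letters TATAAA were present in 2 member windows, those of Cacna1d and Scn2a (5.71%), and in 13.6% of all windows. The metal response element core, searched as TGCACNC and as TGCGCNC, was present in 3 (8.57%) and 5 (14.3%) member windows and in 12.6% and 15.4% of all windows. The antioxidant response element core TGACNNNGC was present in 3 member windows (8.57%), those of Cacna1c, Cacnb4 and Scn8a, and in 12.4% of all windows. The cAMP response element TGACGTCA was present in no member window and in 1.79% of all windows. None of these shares gives binding of a factor, and the letters may occur outside the windows.

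Levels are compared between genes as normalized counts per kilobase of annotated exon, since longer transcripts give more reads. Among the sodium channel alpha genes Scn2a, which serves the axons of excitatory neurons, had the highest level with 309 ± 38.7 (SD over 30 mice) normalized counts per kb, followed by Scn8a, the channel of the mature axon initial segment, with 279 ± 28.8. Their order was less than firm, since Scn2a was above Scn8a in 23 of 30 mice. Scn1a, the main alpha subunit of fast-spiking interneurons, stood at 81.7 ± 10.7 and Scn3a, more abundant in the immature brain, at 37.7 ± 4.48 per kb, and these steps were present in 30 of 30 mice. Scn7a (3.74 ± 1.42) and Scn9a (3.25 ± 0.93 normalized counts per kb) lay far lower, in this order in 20 of 30 mice. Of the sodium channel beta genes, Scn2b measured 1108 ± 135, Scn3b 489 ± 77.9 and Scn4b 90.0 ± 27.0 normalized counts per kb, in this order in 30 of 30 mice.

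Among the calcium channel alpha1 genes the highest level per kb was that of Cacna1e (R-type channels), with 174 ± 27.4 normalized counts per kb. Cacna1b (N-type) and Cacna1a (P/Q-type), the pores that serve transmitter release at most synapses, were level with each other at 103 ± 8.75 and 103 ± 10.9, and Cacna1b was above Cacna1a in 17 of 30 mice. The T-type genes Cacna1h, Cacna1g and Cacna1i followed at 94.8 ± 14.8, 73.4 ± 11.3 and 62.6 ± 8.39 per kb, and the L-type genes Cacna1d and Cacna1c at 46.1 ± 4.73 and 29.6 ± 6.43. Of the alpha2delta genes, Cacna2d1, which encodes a binding site of gabapentin, stood at 271 ± 29.3 and Cacna2d3 at 213 ± 25.9 normalized counts per kb, in this order in 29 of 30 mice. Cacna2d2 was lower at 73.2 ± 17.6, and Cacna2d4, best known from the retina, was at 4.72 ± 1.78 per kb. The beta genes ran from Cacnb3 at 334 ± 48.4 and Cacnb1 at 238 ± 26.4 to Cacnb4 at 120 ± 21.4 and Cacnb2 at 54.2 ± 6.70 per kb, in this order in 30 of 30 mice. Among the gamma genes the hippocampal TARP gene Cacng8 was highest at 368 ± 61.8, although its gene model in this build is only 663 bases long, and Cacng7 was next at 317 ± 62.8. Cacng3, Cacng2, Cacng4 and Cacng5 followed at 196 ± 27.5, 132 ± 18.3, 46.9 ± 6.75 and 25.5 ± 9.10 normalized counts per kb.

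**Figure D1:**
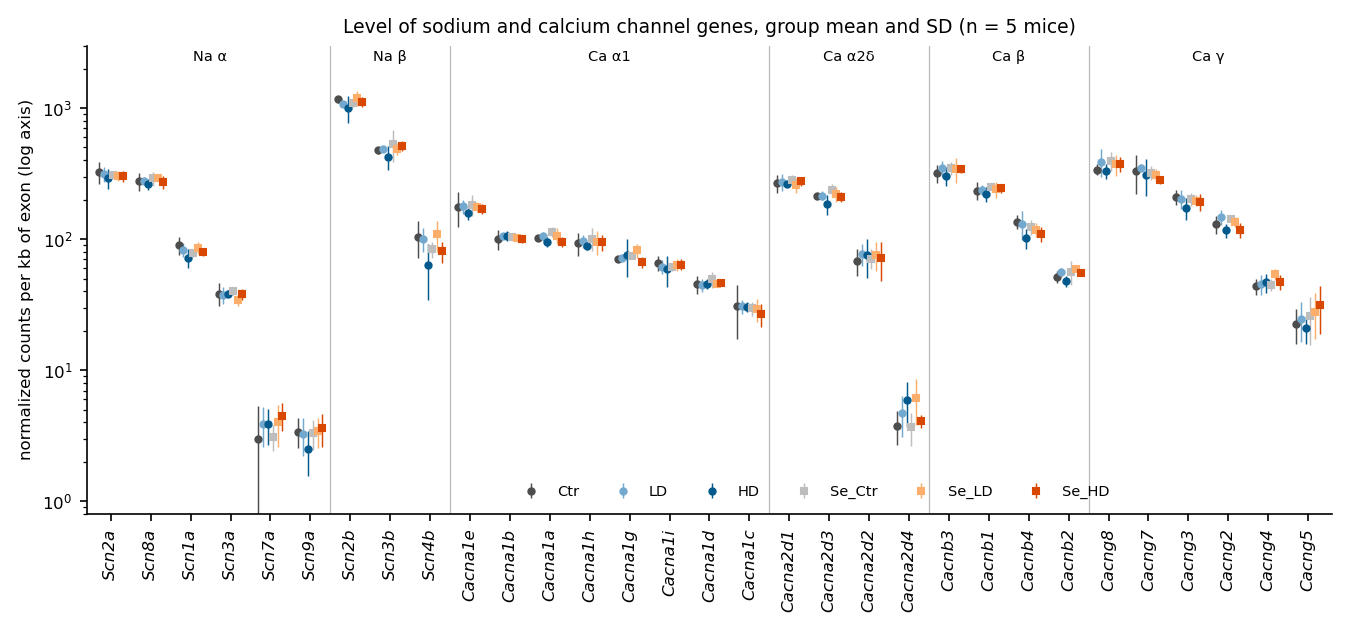
Mean and SD over 5 mice of the normalized counts per kb of exon (log axis) for the genes shown, by subunit family and group. The 6 groups of a gene lie close together, while the genes shown span from Scn9a at 3.25 to Scn2b at 1108 normalized counts per kb.

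Several members are neighbours in the genome (NCBIM37). Scn3a, Scn2a, Scn1a, Scn9a and Scn7a lie in one cluster of sodium channel genes at chr2:65295175-66622971, and Scn2b and Scn4b lie side by side at chr9:44925959-44962235. The members are long genes, with a median span of 111 kb (10.4 to 817 kb, the longest being Cacna2d3), beside 23.6 kb over the 14277 genes averaging 10 or more normalized counts that had a position in the annotation used. Of the 33 members, 15 overlap a gene on the opposite strand. For most of these the overlapping gene was far less abundant, but Cacna2d4, with a mean of 27.4 normalized counts, overlaps Lrtm2 at 305, Cacna1d at 431 overlaps Dcp1a at 233, Cacna1c at 261 overlaps Dcp1b at 141, and Scn9a at 34.9 overlaps Gm13629 at 15.9. Values of Cacna2d4, Cacna1d, Cacna1c and Scn9a are therefore uncertain, since the strand setting of the read counting is not given in the sources used here.

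The effect of the high dose without selenium, HD against Ctr, was tested on log2(normalized count + 1) with limma over Ctr, LD and HD. Here and below a log2 fold change is on this scale, its error is the standard error (SE) of the fit, and a gene is called when its unadjusted p was under 0.05 in the comparison and, within one diet, also in the test over the 3 groups. Of the 33 channel genes, 2 were called lower in HD mice (6.06%), Cacnb4 and Scn4b, and none was called higher. Over all 20031 genes tested, 1.73% were called lower and 3.36% higher, and among genes averaging 10 or more normalized counts, as all members do, 1.96% were called lower. At an adjusted limma p under 0.05 there were no members, beside 0.13% of all genes, and edgeR and DESeq2 on the recovered reads also gave 0 members. The lowest adjusted limma p of a member was 0.333, that of Cacnb4.

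Cacnb4 encodes a beta subunit of presynaptic P/Q-type channels (ENSMUSG00000017412, NCBIM37 chr2:52283845-52532350, minus strand). In Ctr mice it measured 1255, 1075, 1065, 1240 and 1421 normalized counts, and in HD mice 804, 839, 1146, 754 and 1010. The lowest 4 HD mice were below every Ctr mouse, and the fifth, from library 15, was within the Ctr range. The group means were 1211 ± 147 in Ctr and 911 ± 163 in HD (SD, n = 5), a log2 fold change of -0.42 (SE 0.14, 95% interval -0.72 to -0.12). The adjusted limma p was 0.333, and an exact permutation test of 5 against 5 mice gave p = 0.0317 (two-sided, smallest possible value 0.00794). LD mice ranged widely, from 956 to 1646 normalized counts of Cacnb4, which covered the whole Ctr range. The HD mice at 754, 804 and 839 lay below every LD mouse. The share of Cacnb4 in the summed beta subunit level per kb was 18.4% ± 2.50 in Ctr and 15.1% ± 1.93 in HD. The call was lost without library 3 or library 21 of HD, with a log2 fold change of -0.36 without the latter.

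Scn4b encodes the beta subunit linked to the resurgent sodium current of fast-firing neurons (ENSMUSG00000046480, NCBIM37 chr9:44946520-44962235, plus strand). It measured 738, 481, 318, 594 and 441 normalized counts in Ctr mice and 342, 294, 456, 83.2 and 382 in HD mice. The 2 groups overlapped, with 2 HD mice below every Ctr mouse and library 21 far below all others. The means were 514 ± 159 in Ctr and 312 ± 141 in HD (SD, n = 5), and the log2 fold change was -0.86 (SE 0.32, 95% interval -1.53 to -0.20; limma adjusted p = 0.408). The exact permutation test gave p = 0.0714. Without library 21 the log2 fold change of Scn4b was -0.44 and the gene was no longer called. Its neighbour Scn2b, 3163 normalized counts in library 21 and 3809 to 5766 in the other HD mice, beside 4865 to 5545 in Ctr, was not called.

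A further 3 genes had an unadjusted p under 0.05 for HD against Ctr but did not pass the test over the 3 groups, and so were not called. Scn1a measured 1088, 775, 1111, 901 and 1121 normalized counts in Ctr mice and 800, 784, 928, 585 and 893 in HD mice, with 1 HD mouse, again library 21, below the Ctr range. Its log2 fold change was -0.33 (SE 0.13, 95% interval -0.60 to -0.06; limma adjusted p = 0.468), and the exact permutation p was 0.0873. Cacna2d3 had a very narrow range in Ctr mice, 767 to 815 normalized counts, and measured 731, 487, 674, 768 and 748 in HD mice, of which 4 lay below every Ctr mouse. Its log2 fold change was -0.23 (SE 0.11, 95% interval -0.46 to -0.00; limma adjusted p = 0.593; exact permutation p = 0.0159). Cacng3 had a log2 fold change of -0.29 (SE 0.14; limma adjusted p = 0.598; exact permutation p = 0.111). In abundant members of the families the high dose gave log2 fold changes of -0.15 for Scn2a, -0.10 for Cacna1e, -0.01 for Cacna2d1, -0.07 for Cacnb3 and -0.04 for Cacng8, none of them called. Their means in Ctr and HD were 3015 ± 569 and 2717 ± 473 normalized counts for Scn2a, 2232 ± 651 and 2019 ± 244 for Cacna1e, 2238 ± 341 and 2211 ± 108 for Cacna2d1, 994 ± 158 and 949 ± 151 for Cacnb3, and 224 ± 21.6 and 219.8 ± 29.9 for Cacng8. Over all members the log2 fold changes ran from -0.86 (Scn4b) to 0.64 (Scn7a), with 24 below 0 and a median of -0.08, beside 50.5% of genes below 0 and a median of -0.00 over the 14296 genes averaging 10 or more.

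**Figure D2:**
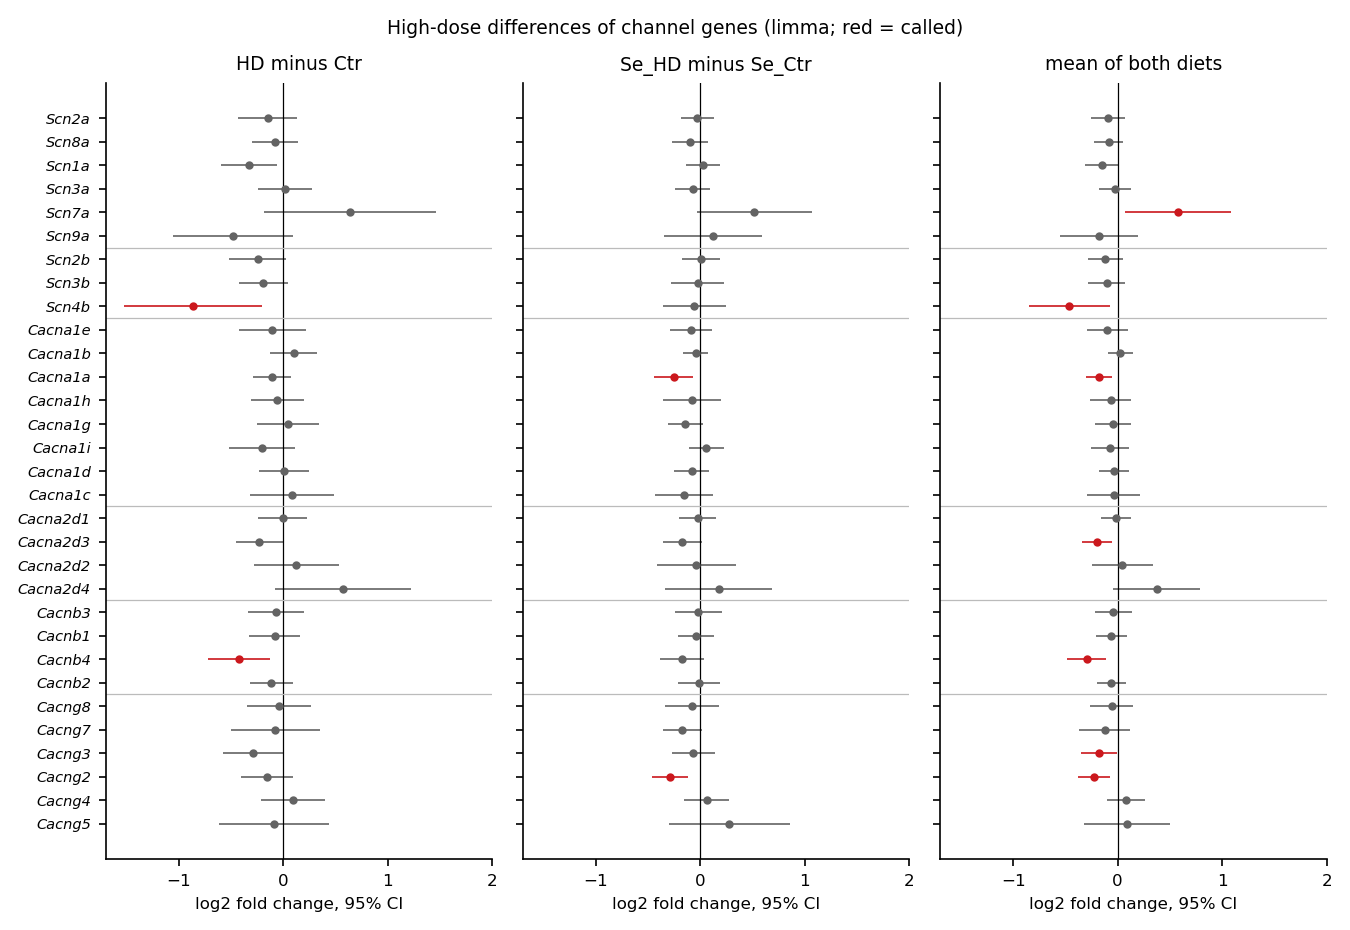
Log2 fold change and 95% interval from limma of the genes shown for HD against Ctr, Se_HD against Se_Ctr and the mean of both; red marks called genes. Cacnb4 (-0.42) and Scn4b (-0.86) were called in the first comparison, Cacng2 (-0.29) and Cacna1a (-0.26) in the second, and 7 genes in the mean of both.

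Many of the lowest values of the members came from 1 HD mouse. HD library 21 held the lowest value of all 30 libraries for 13 of the 33 members (39.4%), beside 11.1% of the genes averaging 10 or more. Among these were Scn1a, Scn2a, Scn9a, Scn2b, Scn3b, Scn4b, Cacna1i, Cacnb3, Cacnb4, Cacng3, Cacng7 and Cacng8. The same library also had the highest value of 2 members, Cacna1g with 1147 and Cacna2d2 with 684 normalized counts, so that its members did not all lie low. The median deviation of the members from their mean over all mice was -0.29 (log2) in library 21, and -0.14 to 0.05 in the other HD mice. Without it, 23 of the 33 log2 fold changes for HD against Ctr were below 0 with a median of -0.06, and 1 gene was called, Cacna2d3 at -0.28 (limma adjusted p = 0.671). In bulk tissue, fewer cells of a type and less RNA per cell cannot be told apart.

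**Figure D3:**
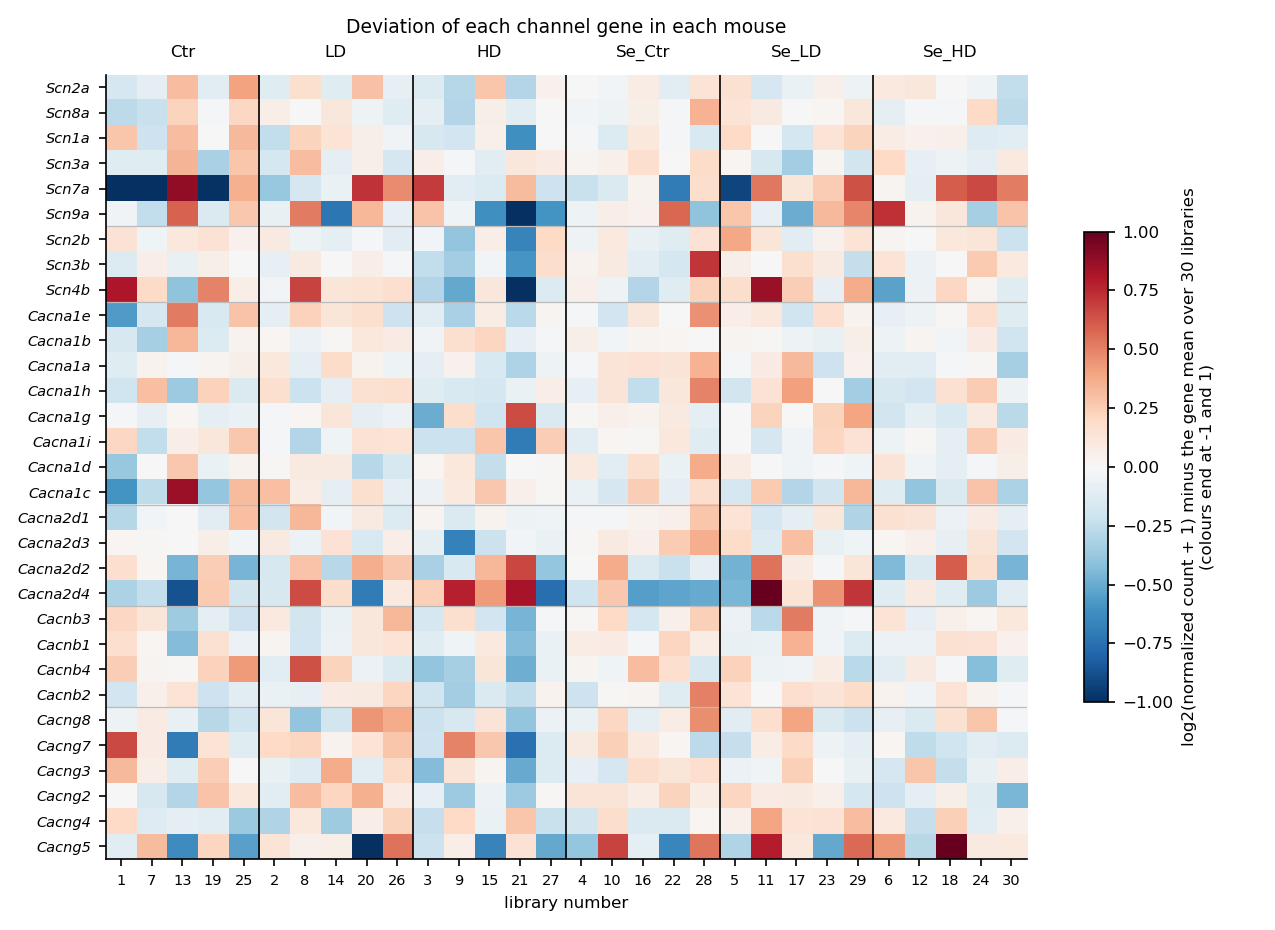
Log2(normalized count + 1) of each gene in each library minus the mean of the gene over 30 libraries, for the genes shown (colours end at -1 and 1), libraries grouped by diet and dose and labelled by number. The column of HD library 21 is mostly blue (median deviation of the members -0.29), and that of Se_Ctr library 28 mostly red.

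Markers of other cells differed along with the channel genes in HD mice. All 9 microglia markers were called higher in HD than in Ctr, 3 of them at an adjusted limma p under 0.05 (C1qa, C1qb and Csf1r), and none of the 9 in Se_HD. Their summed level was 3270 to 7457 normalized counts in HD, highest in library 21, and 2583 to 2867 in Ctr. Of 8 astrocyte markers 4 were called higher in HD, with summed levels of 51567 to 57763 beside 43981 to 54868 in Ctr. Of 11 interneuron markers 2 were called lower in HD, Gad1 at -0.45 and Pvalb at -0.59, with summed levels of 7528 to 9854 beside 9714 to 10967. Of 6 excitatory neuron markers 2 were called lower, among them the glutamatergic identity gene Tbr1 at -0.64, with summed levels of 12016 to 17909 beside 12499 to 15600. Markers of the hippocampal subfields (8 genes), thalamus (6), oligodendrocytes (8), oligodendrocyte precursors (5), endothelium (6), choroid plexus (8), striatum (7) and blood (3) gave no call in HD against Ctr, and no listed marker had a group mean of 0. The choroid plexus markers had the largest median log2 fold change of these lists, 1.42, but their summed level varied widely within groups, from 814 to 31136 normalized counts in Ctr and from 6982 to 29250 in HD. The part of these markers in the differences of the channel genes was not tested.

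The low dose gave no call among the channel genes. For LD against Ctr, 0 of the 33 members were called in either direction by limma, beside 0.819% of all genes called higher and 0.639% lower, and no member had an unadjusted p under 0.05 in the contrast. Of the log2 fold changes 22 were above 0, the highest being 0.64 (Scn7a), and the median was 0.04. Cacng2, for instance, measured 664, 892, 834, 921 and 762 normalized counts in LD mice and 717, 642, 587, 876 and 772 in Ctr mice, which overlapped. Leaving out 1 mouse gave at most 1 call, which arose without Ctr library 13 or 19 or without LD library 2 or 8.

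In the diet with selenium the high dose was compared as Se_HD against Se_Ctr. Here 2 members were called lower (6.06%), Cacng2 and Cacna1a, and none higher, beside 0.777% of the 19679 genes tested called lower and 1.28% called higher, and 0.644% called lower among genes averaging 10 or more. No member had an adjusted limma p under 0.05, since the lowest was 1.00, and edgeR and DESeq2 gave 0 members as well. The called genes differed from those of HD against Ctr, but a call in one diet and not in the other is no test of a difference, which is given further below. Of the marker lists, 1 of 6 endothelium markers was called higher in the same test, Flt1 at 0.16, and the choroid plexus markers, none of them called, had a median log2 fold change of 0.75, and their part in the result was not tested.

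Cacng2 encodes stargazin, the TARP that brings AMPA receptors to the synapse of many neurons (ENSMUSG00000019146, NCBIM37 chr15:77822178-77950458, minus strand). In Se_Ctr mice it measured 788, 788, 758, 838 and 757 normalized counts, and in Se_HD mice 623, 672, 747, 662 and 524. All 5 Se_HD mice were below all 5 Se_Ctr mice, the only such case among the members. The share of genes with all 5 exposed mice below all 5 controls was 0.32% in this comparison, and 0.478% had all 5 above. In HD against Ctr no member was free of overlap, beside 0.734% of genes with all exposed mice below and 0.978% with all above. The Cacng2 means were 786 ± 32.9 in Se_Ctr and 646 ± 81.7 in Se_HD (SD, n = 5), a log2 fold change of -0.29 (SE 0.08, 95% interval -0.47 to -0.12; limma adjusted p = 1.00). The exact permutation p was 0.00794, the smallest that 5 against 5 mice can give. Without selenium Cacng2 measured 678, 560, 691, 559 and 725 normalized counts in HD mice, which overlapped with Ctr (log2 fold change -0.16, exact permutation p = 0.278).

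Cacna1a encodes the pore of the P/Q-type channel (ENSMUSG00000034656, NCBIM37 chr8:86912339-87164145, plus strand). It measured 1158, 1275, 1289, 1275 and 1488 normalized counts in Se_Ctr mice and 1081, 1087, 1156, 1176 and 930 in Se_HD mice. Of the Se_HD mice, 4 were below every Se_Ctr mouse, and the fifth, at 1176, was just above the lowest Se_Ctr mouse. The means were 1297 ± 119 and 1086 ± 96.6 (SD, n = 5), with a log2 fold change of -0.26 (SE 0.09, 95% interval -0.44 to -0.07; limma adjusted p = 1.00; exact permutation p = 0.0159). The call was lost without Se_Ctr library 28, the highest value, and without Se_HD library 30, the lowest. Without selenium Cacna1a measured 1073, 1194, 1157, 1190 and 1217 in Ctr and 1094, 1203, 1052, 944 and 1127 in HD mice, which overlapped, with a difference of -0.11 on the log2 scale (exact permutation p = 0.143).

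Cacnb4 measured 1076, 1026, 1311, 1185 and 945 normalized counts in Se_Ctr mice and 984, 1122, 1047, 786 and 970 in Se_HD mice. These overlapped, and the log2 fold change was -0.18 (SE 0.10; exact permutation p = 0.190). Cacna2d3 measured 788, 834, 809, 933 and 1006 in Se_Ctr and 790, 809, 736, 856 and 683 in Se_HD, with a log2 fold change of -0.17 (SE 0.09; exact permutation p = 0.111). Scn4b measured 435, 406, 343, 386 and 494 in Se_Ctr and 290, 404, 486, 429 and 386 in Se_HD, a difference of -0.06 on the log2 scale (exact permutation p = 0.698). Scn1a ran from 806 to 964 in Se_Ctr and from 819 to 944 in Se_HD, and its log2 fold change was 0.03 (exact permutation p = 0.659). Neither Scn4b nor Scn1a, both lowest in HD library 21, was called at the high dose with selenium. Se_Ctr library 28 held the highest value of all libraries for 8 members, and without it the median log2 fold change of the 33 genes moved from -0.05 to 0.00, with 16 below 0 in place of 24, and the called genes were Cacng2 and Cacng7.

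**Figure D4:**
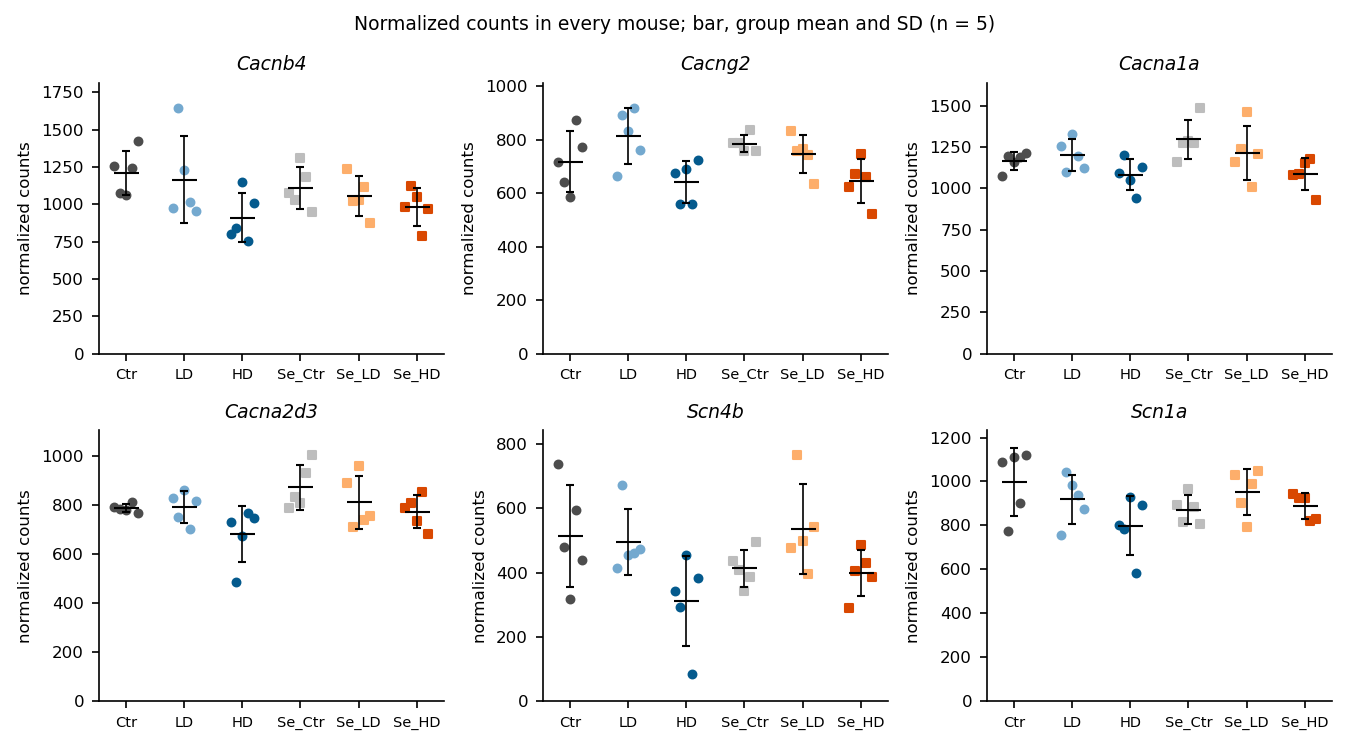
Normalized counts in every mouse of the 6 groups for Cacnb4, Cacng2, Cacna1a, Cacna2d3, Scn4b and Scn1a, with the group mean and SD (n = 5). All HD mice lie below the Ctr mean for Cacnb4, all Se_HD mice lie below all Se_Ctr mice for Cacng2, and the lowest Scn4b point, at 83.2, is HD library 21.

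The mean of both high-dose differences was tested over the 2 diets and all 30 libraries, 10 high-dose mice against 10 controls. Of the 33 channel genes 6 were called lower (18.2%), Cacnb4, Cacng2, Cacna1a, Cacna2d3, Cacng3 and Scn4b, and 1 was called higher, Scn7a (3.03%). Over all 21383 genes 3.81% were called lower and 5.28% higher, with 4.45% lower among those with a mean of at least 10, and no member was among the 0.21% of genes with an adjusted limma p under 0.05. The count drew on the same mice as both comparisons above and adds no new animals to them. In all, 26 members had a log2 fold change below 0, with a median of -0.07, beside 51.4% of genes averaging 10 or more. In the same test 9 of 9 microglia, 4 of 8 astrocyte and 1 of 7 striatum markers were called higher, and 2 of 11 interneuron and 2 of 6 excitatory neuron markers were called lower, and their part in these differences was not tested.

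Cacnb4 had a log2 fold change of -0.30 (SE 0.09, 95% interval -0.49 to -0.11; limma adjusted p = 0.223), and 9 of 10 high-dose mice were under the median of the controls. For Cacng2 it was -0.22 (SE 0.07, 95% interval -0.38 to -0.07; limma adjusted p = 0.257), with 10 of 10 mice under that median. Cacna1a was called at -0.18 (SE 0.06, 95% interval -0.31 to -0.06; limma adjusted p = 0.261), also with 10 of 10. Among the alpha2delta genes Cacna2d3 was called at -0.20 (SE 0.07, 95% interval -0.35 to -0.06; limma adjusted p = 0.309), with 8 of 10 mice under the median (ENSMUSG00000021991, NCBIM37 chr14:29718133-30535050, minus strand). The median used here pooled the controls of both diets. Against the Ctr median alone, HD library 27 was above it for Cacng2 (725 against 717). For Cacna1a, HD library 9 was above it (1203 against 1190). How often all genes give such counts was not examined. These 4 genes, a P/Q-type pore, a beta and an alpha2delta subunit and a TARP, kept their call when any of the 30 mice was left out and under 9 other ways of processing. The ducky gene Cacna2d2, the other mutant locus named above, had a log2 fold change of 0.04 (95% interval -0.25 to 0.34), with 6 of 10 high-dose mice under the median of the controls. Without HD library 21, its highest value at 684, the log2 fold change of Cacna2d2 was -0.04.

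The remaining calls over both diets were less stable. Scn4b was at -0.46 (SE 0.19; limma adjusted p = 0.436) and lost its call without HD library 21, where it was -0.25, without Ctr library 1, or with DESeq2. Cacng3, another TARP gene, had means of 320.3 ± 40.7 in Ctr, 264 ± 50.3 in HD, 307 ± 32.6 in Se_Ctr and 293 ± 43.3 normalized counts in Se_HD, and was at -0.18 (SE 0.09; limma adjusted p = 0.540) and lost its call in 15 of the 30 fits with 1 mouse left out, and also with a covariate for sets of consecutively numbered libraries, with limma without the trend, with edgeR and with DESeq2. Scn7a, a gene of a sodium-sensing channel that is low in this tissue, was called higher at 0.58 (SE 0.25, 95% interval 0.07 to 1.08; limma adjusted p = 0.470), from group means of 22.0 ± 17.5 in Ctr, 28.3 ± 8.53 in HD, 22.8 ± 5.08 in Se_Ctr and 33.1 ± 7.83 normalized counts in Se_HD. Of the 10 high-dose mice 1 was under the median of the controls for Scn7a, and the call was lost without Ctr library 1, 7 or 19, HD library 3 or Se_Ctr library 22, and with edgeR or DESeq2. Its cluster neighbours on chromosome 2 were not called, at -0.03 for Scn3a, -0.09 for Scn2a, -0.15 for Scn1a and -0.18 for Scn9a. Without HD library 21 the members called over both diets were Cacna1a (-0.16), Cacna2d3 (-0.22), Cacnb4 (-0.27), Cacng2 (-0.20) and, higher, Scn7a (0.55), and 27 log2 fold changes were below 0 with a median of -0.05. Without Ctr library 1 the called genes were 4, namely Cacna1a, Cacna2d3, Cacnb4 and Cacng2.

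Genes whose products bind or regulate the channels were examined as 3 lists. None of 13 genes of sodium channel partners, among them the ankyrin gene Ank3, was called in HD, in Se_HD or over both diets. Of 20 genes of calcium channel partners, Stac2, an adaptor that slows inactivation of L-type channels, was called lower in HD at -0.41 (SE 0.14; limma adjusted p = 0.296) and over both diets at -0.29 (SE 0.10; limma adjusted p = 0.272). Rrad, a small G protein that inhibits calcium channels, was called higher in HD at 1.05 (SE 0.38; limma adjusted p = 0.399), at group means of only 4.33 in Ctr and 9.76 normalized counts in HD. These 2 were the only partner genes called in HD, beside 1.73% of all genes called lower and 3.36% higher. Among 9 genes of AMPA receptors and their other partners, none was called within a diet at the high dose, and Gsg1l, an AMPA receptor auxiliary subunit, was called lower over both diets at -0.26 (SE 0.12; limma adjusted p = 0.525). In the tests of selenium described below, Rrad was called lower over all doses at -0.70, Rimbp2, a presynaptic scaffold gene, was called lower for the high dose by selenium at -0.37, and for the low dose by selenium Erc2, a gene of the presynaptic active zone, was called lower at -0.32 and Cask, a synaptic scaffold gene, higher at 0.26, at limma adjusted p of 0.675 to 0.998.

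The 6 groups together differed in 5 members by the limma F test (15.2%, beside 6.91% of all genes), which were Cacng2, Scn4b, Cacna2d3, Cacnb4 and Cacna1a. No member was among the 0.444% of genes with an adjusted limma p under 0.05, and the lowest adjusted p of a member was 0.382, for Cacng2. The count of 5 was 3 to 9 when 1 mouse was left out, and HD libraries 3, 9 and 27 moved it by more than 1.5 times. At the level of families the summed levels per kb overlapped between all groups. The calcium channel beta sum was 739.9 ± 82.3 in Ctr, 674 ± 79.9 in HD, 779 ± 39.2 in Se_Ctr and 751 ± 24.1 normalized counts per kb in Se_HD, and the gamma sum was 1074 ± 154, 1001 ± 161, 1135 ± 59.9 and 1046 ± 43.1 in the same order.

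The difference between the diets in the effect of the high dose was tested as an interaction, Se_HD minus Se_Ctr set against HD minus Ctr. It was called for 2 members (6.06%), Scn1a and Scn4b, both with a less negative effect under selenium, and for none in the opposite direction, beside 1.82% and 2.96% of all genes. For Scn1a the interaction was 0.35 (SE 0.16, 95% interval 0.04 to 0.67; limma adjusted p = 0.997), and for Scn4b 0.80 (SE 0.38, 95% interval 0.02 to 1.59; limma adjusted p = 0.997). Markers of several cell types were called in the same test. Of 9 microglia markers 8 were called lower, with C1qb at -1.65 and C1qa at -1.23, and their summed level was 2711 to 3173 normalized counts in Se_HD and 2527 to 3192 in Se_Ctr, beside the higher HD values given above. Of 8 astrocyte markers 2 were called lower, Aqp4 at -0.87 and Sox9 at -0.57, and of 11 interneuron markers 2 were called higher, Gad1 at 0.49 and Erbb4 at 0.48, as was Tbr1 at 0.48 among 6 excitatory neuron markers. The part of these markers in the interaction of Scn1a and Scn4b was not tested. Both calls were lost without HD library 21, where the interaction was 0.38 for Scn4b. They were lost as well without Ctr library 1 or Se_Ctr library 10; that of Scn1a also without Ctr library 13 or 25, Se_Ctr library 28 or Se_HD library 6, and that of Scn4b without Ctr library 7 or 19, Se_Ctr library 16 or 22, or Se_HD library 12, 18, 24 or 30. The genes called at the high dose within one diet, Scn4b aside, were not called in this test, with interactions of 0.24 for Cacnb4 (95% interval -0.13 to 0.62), -0.14 for Cacng2 (-0.44 to 0.17) and -0.15 for Cacna1a (-0.40 to 0.10). These intervals include effects as large as the differences themselves. For Cacna2d3 the interaction was 0.06 (95% interval -0.23 to 0.35). At the low dose the interaction was called for 0 of 33 members by limma, beside 1.87% of all genes called higher and 1.88% lower.

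The low dose with selenium, Se_LD against Se_Ctr, gave 2 members called higher (6.06%), Cacna2d4 and Scn4b, and 1 called lower (3.03%), Scn3a, beside 0.879% and 0.584% of all genes. Scn4b measured 476, 766, 498, 397 and 543 normalized counts in Se_LD mice, of which 3 were above every Se_Ctr mouse, with a log2 fold change of 0.35 (SE 0.15; limma adjusted p = 1.00; exact permutation p = 0.0794). Cacna2d4 had means of 21.3 ± 5.98 in Se_Ctr and 35.9 ± 13.6 in Se_LD (SD, n = 5), with a log2 fold change of 0.68 (SE 0.25; limma adjusted p = 1.00; exact permutation p = 0.0714). Scn3a had means of 501 ± 28.7 and 433 ± 46.5, with a log2 fold change of -0.22 (SE 0.08; limma adjusted p = 1.00; exact permutation p = 0.0317). Each call was lost in some fits with 1 mouse left out: that of Scn4b without Se_Ctr library 16 or 22 or Se_LD library 11, that of Cacna2d4 without Se_Ctr library 16, 22 or 28 or Se_LD library 11, 23 or 29, and that of Scn3a without Se_Ctr library 16 or 28 or Se_LD library 11, 17 or 29. The count of 3 was 0 to 6 over these fits and 0 when all 30 libraries were fitted together.

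Thalamus markers moved with Scn4b in some of these libraries. Of 6 thalamus markers 5 were called higher in Se_LD than in Se_Ctr, among them Slc17a6 at 1.00 and Tcf7l2 at 0.98, and none in the high-dose comparisons. The other marker calls in Se_LD were Flt1 of the endothelium, higher at 0.18, and C1qa of microglia, lower at -0.22, and the choroid plexus markers, none of them called, had a median log2 fold change of -0.97. The summed level of the thalamus markers was highest in 3 libraries, at normalized counts of 3078 in LD library 8, 2964 in Se_LD library 29 and 2944 in Se_LD library 11. It was 757 to 1762 in Ctr and HD mice. Scn4b was at 672, 543 and 766 in those 3 libraries, and Cacna2d4 was at 41.1, 42.9 and 54.2. In Se_LD libraries 29 and 11 both genes were above their Se_Ctr ranges. LD library 8 was above the Ctr range for Cacna2d4 (13.6 to 31.2) but within it for Scn4b (318 to 738). In HD library 21, where the thalamus markers were low, Cacna2d4 was also above its Ctr range, at 46.5. HD library 21 had the lowest summed thalamus level of all libraries, 757, and the lowest Scn4b, while Ctr library 1 with 738 of Scn4b had the highest thalamus level of its group. Other libraries did not follow this: HD library 9, with the highest thalamus level of its group (1601), had 294 of Scn4b, second lowest among HD mice, and Se_Ctr library 10, also the highest of its group (1502), had 406. Pvalb, the parvalbumin gene of fast-spiking interneurons, was at 151 in HD library 21 and 181 in HD library 3, and at 265 to 519 in Ctr. The part of tissue bordering the hippocampus in the Scn4b values was not tested.

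**Figure D5:**
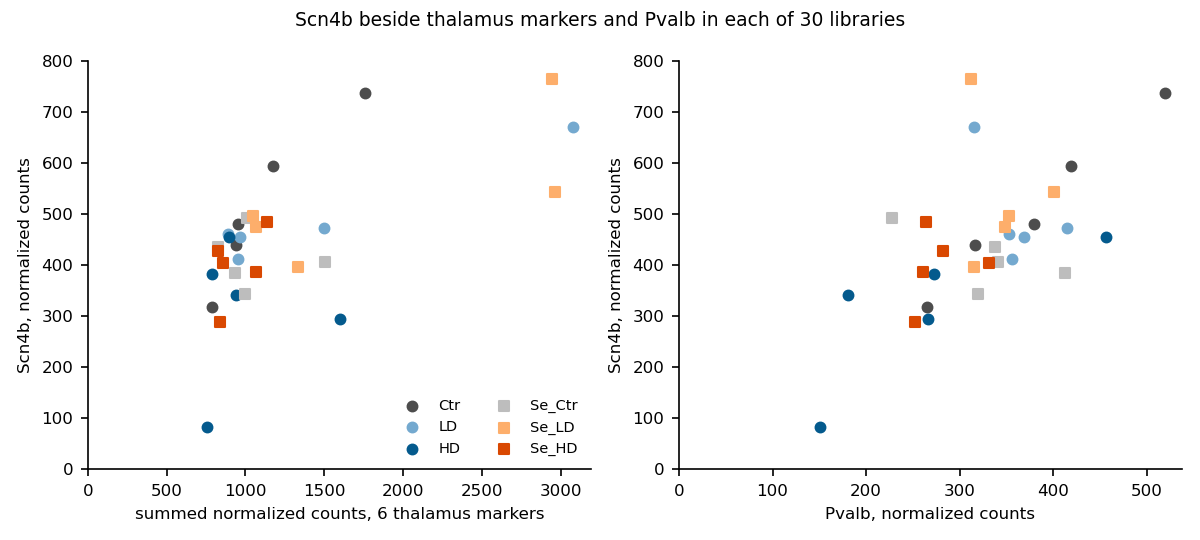
Normalized counts of Scn4b in each of 30 libraries against the summed normalized counts of 6 thalamus markers (left) and against Pvalb (right), coloured by group. The 3 libraries with the highest thalamus sums have Scn4b at 543 to 766, and HD library 21 is lowest on both axes of both plots.

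Over both diets, the low dose gave 1 member called higher (3.03%), Cacna2d4 at 0.48 (SE 0.20; limma adjusted p = 1.00), and none lower, beside 1.52% and 1.17% of all genes. The call was lost without Ctr library 13, LD library 8 or Se_LD library 11, the last 2 being libraries with high thalamus markers. In the same test 3 of 6 thalamus markers were called higher, Tcf7l2 at 0.72, Prkcd at 0.58 and Plekhg1 at 0.46, and their part in the Cacna2d4 result was not tested. Selenium over all doses gave 2 members called higher (6.06%) and none lower, beside 2.82% and 3.80% of all genes. Cacna2d3 was at 0.12 (SE 0.06; limma adjusted p = 0.752) and lost its call in 13 of 30 fits with 1 mouse left out, and Cacnb2, a beta subunit gene, was at 0.13 (SE 0.06; limma adjusted p = 0.744) and lost it without Se_Ctr library 28, its highest value at 705. The Cacna2d3 means were 789 ± 17.5 in Ctr and 874 ± 92.5 in Se_Ctr, 793 ± 63.7 in LD and 812 ± 108 in Se_LD, and 682 ± 114 in HD and 775 ± 66.8 in Se_HD. For Cacnb2 they were 476 ± 51.4 and 520 ± 108, 514 ± 44.1 and 541 ± 27.3, and 439.9 ± 43.9 and 509 ± 23.8 normalized counts in the same order. The mean was higher with selenium at each MeHg level for both genes. In the same test 4 of 8 astrocyte markers, 4 of 9 microglia markers (C1qb at -0.58), 2 of 3 blood markers and 1 of 6 endothelium markers were called lower, and 2 of 11 interneuron markers (Gad1 at 0.15 and Dlx1 at 0.18), 1 of 8 oligodendrocyte markers and 1 of 8 markers of the hippocampal subfields were called higher. Their part in the selenium result was not tested.

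The remaining members were called in no comparison. Among these were Scn2a, Scn8a, Scn9a, Scn2b, Scn3b, the alpha1 genes other than Cacna1a, Cacna2d1, Cacna2d2, Cacnb1, Cacnb3, Cacng4, Cacng5, Cacng7 and Cacng8. The coefficient of variation over all 30 mice was lowest for Cacna1b with 8.49%. Among the more abundant uncalled genes, Scn8a ranged from group means of 2903 ± 267 in HD to 3239 ± 134 in Se_LD, and Cacna2d1 from 2182 ± 281 in Se_LD to 2375 ± 212 in Se_Ctr. Cacna1g varied more in HD than elsewhere, with 757 ± 244 normalized counts beside 706 ± 24.2 in Ctr.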

How the data were processed

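Poly(A) RNA from the hippocampus of 30 mice was sequenced by the authors as stranded single-end libraries. Per the labels and methods, reads were trimmed with Trim Galore 0.4.2, checked with FastQC, mapped with HISAT2 to NCBIM37 and counted per gene with featureCounts, and features with a low row sum were removed. The deposited values are a signal, the read counts per gene that the authors divided by DESeq2 size factors ("normalized counts"). The strand setting of the counting is not given in the sources used here. All values (100%) were whole reads over 1 factor per library, within a tolerance of 0.01, so reads were recovered for the count models. At an adjusted p under 0.05, HD against Ctr gave 26 genes with limma, 45 with edgeR and 196 with DESeq2, and the high dose over both diets gave 45, 68 and 183.

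Normalized counts, as log2 after adding 1, entered limma 3.58.1 (R 4.3.3) with a trend and 1 coefficient per group, over the 15 libraries of a diet for the comparisons within it and over all 30 for the rest. The filter kept genes summing to 10 or more in the fit, 20031 without selenium, 19679 with selenium and 21383 in all, and p-values were adjusted by Benjamini-Hochberg over all of them. Single genes were also compared by exact permutation tests (two-sided, 5 against 5 mice). The members and the lists of partner and marker genes were chosen with earlier results of these data known. By a rule, values in every mouse were given for genes called at the high dose within a diet without overlap of the groups, and means and log2 fold changes for the other called genes and for the highest gene per kb of each family; the values in every mouse of Cacnb4, Scn4b, Scn1a, Cacna1a and Cacna2d3 were added after they were seen. The labels give no replicate numbers, and those assigned here in accession order only name the samples and do not pair them.

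Alternatives were pseudocounts of 0.1 and 10, other filters on low values, quantile normalization, recomputed size factors, limma without the trend, a covariate for sets of 6 libraries numbered in a row, count models on the recovered reads (DESeq2 1.42.0 and edgeR 4.0.16), other sums for membership, the contrast alone, all libraries in 1 fit, and leaving out each mouse; the median log2 fold changes without each mouse were added after seeing the data. The scripts were tested on simulated data. Python 3.11.15, pandas 2.3.3, numpy 2.4.6 and matplotlib 3.10.9 were used for tables and figures. Promoter windows came from the RefSeq table and its GRCm38.p6 coordinates were not mixed with NCBIM37 positions. Start-site windows of Cacna1a, Cacna1g, Cacna1h, Cacna2d4, Cacng4, Scn3a and Scn3b were not used here. Some genes are not reported here by name, although the counts include them.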

Additional observations from a re-analysis of the deposited data

Results flagged for a closer look

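In 8 of the 186 groups of 5 mice that 31 of the genes give, 1 mouse stood far from the other 4, by Dixon's test at the 95% level, which chance alone gives in about 1 of 20 groups. Se_Ctr library 28 was the highest for Scn8a with 3916 normalized counts (others 2974 to 3209), Scn3b with 3654 (1975 to 2364), Cacna2d1 with 2742 (2226 to 2347) and Cacnb2 with 705.2 (430.2 to 505). Se_LD library 17 was the highest for Cacnb3 with 1481 (857 to 1014), Cacnb1 with 1363 (972 to 1045) and Cacng3 with 349.6 (281 to 295). LD library 8 was the highest for Scn4b with 672 (413 to 474).

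The effect of the high dose differed between the diets for Scn1a by 0.3548 and for Scn4b by 0.8048 (log2, limma interaction, adjusted p 0.997 each), as reported above with the libraries on which each rests.

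Some channel genes under the sum of 300 had a mean in an exposed group above the highest of its controls, which was not tested. Cacna1s, the pore of the skeletal muscle channel, was at 7.559 ± 2.99 normalized counts in HD (SD, n = 5), from 3.49 to 10.6, beside 2.25 to 6.04 in Ctr mice, so that the groups overlapped. Scn11a was at 4.1 ± 5.55 in HD, from 0 to 13.1, beside 0 to 1.70 in Ctr. Scn10a was at 0.9217 in Se_HD and 0.8371 in Se_LD, beside 0 in all 5 Se_Ctr mice, but without selenium its mean was highest in Ctr, at 1.13 (0 to 3.40), beside 0.57 in LD and 0.70 in HD. These are levels of a few reads per library.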

How the results depend on the processing

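All 20 single-gene differences named above as called, or tested for Scn1a in HD, kept their direction in every alternative run. Calls of single genes were lost with limma without the trend for Cacnb4 and Scn4b in HD, Cacna1a in Se_HD, Scn3a and Scn4b in Se_LD, Cacng3 over both diets, Cacna2d3 for selenium and Scn4b for the high dose by selenium. DESeq2 lost those of Scn4b in HD, over both diets and by selenium and of Cacng3 and Scn7a over both diets, and edgeR those of Cacng3 and Scn7a over both diets and of Scn4b by selenium. The counts of called members moved as follows, and the cause was not tested unless stated. With limma without the trend they were 0 for HD against Ctr, 1 for Se_HD, 1 for Se_LD, 2 over the 6 groups, 1 for selenium and 1 for the high dose by selenium. With DESeq2 they were 1 for HD against Ctr, 4 for the high dose over both diets and 1 for the high dose by selenium, where edgeR and a mean of at least 10 also gave 1. With all 30 libraries in 1 fit they were 4 for HD against Ctr and 0 for Se_LD, and with the contrast alone 5 for HD against Ctr. Quantile normalization gave 1 call for the low dose by selenium (Scn2b), and a sum of at least 1000 for membership, which leaves out Cacna2d4, gave 0 for the low dose over both diets. Over all genes, DESeq2 called 1091 for HD against Ctr, beside 1019 with limma. For the high dose over both diets it called 1837, beside 1944, and for the high dose by selenium 924, beside 1021. The share of all genes called was not counted with limma without the trend, with 1 fit or with the contrast alone.

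When each mouse was left out in turn the number of called members was 1 to 5 for HD, 0 to 1 for LD, 1 to 3 for Se_HD, 0 to 6 for Se_LD, 3 to 9 over the 6 groups, 4 to 10 for the high dose over both diets, 0 to 2 for the low dose over both diets, 0 to 3 for selenium, 0 to 3 for the high dose by selenium and 0 to 2 for the low dose by selenium. The share of all genes called moved as well. For HD it was 1.32% to 2.13% lower and 2.31% to 3.91% higher. For Se_HD it was 0.589% to 1.49% lower and 0.865% to 1.62% higher. For the high dose over both diets it was 3.32% to 4.32% lower and 4.52% to 6.08% higher. In the other comparisons that share was not counted for each mouse left out. The labels give the mice no replicate number shared between groups, but their library numbers run through the 6 groups in sets of 6. With these sets as a block in the fit, the called members were 2 for HD, 0 for LD, 2 for Se_HD, 3 for Se_LD, 6 over the 6 groups, 6 for the high dose and 1 for the low dose over both diets, 2 for selenium, 2 for the high dose by selenium and 0 for the low dose by selenium, and of the single-gene calls that of Cacng3 over both diets was lost (-0.18). That libraries of a set were handled together is not stated in the sources used here. Depth limits Scn7a, Scn9a and Cacna2d4, among others, with means of 27.4 to 34.9 normalized counts. The differences called rest on unadjusted p-values, and no member passed the adjusted threshold with limma, edgeR or DESeq2.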
